A study of Mus musculus with 14 samples.

Results

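The immediate early genes described here are 10 genes: the AP-1 and related factors Fos, Fosb, Jun, Junb and Atf3, the zinc finger factors Egr1 and Egr3, the nuclear receptor Nr4a1, and the signal regulators Ier3 and Dusp1. They were found by gene symbol, and all 10 were present among the 54347 genes of the deposited tables. Their RNA was measured in 14 bulk lung libraries from mice labelled C57BL/6. Every mouse had received intranasal extract of Alternaria alternata, an allergenic mould, at 2 mg per dose in 40 µl on 4 days, so no library here shows the genes without the allergen. In the first experiment irradiated recipients either had human JAK1 with a gain of function (GOF; n = 2) or were wild type (WT; n = 2). Recipients of both kinds were given 10000000 live WT bone marrow cells, so the mutation was in host cells and not in the graft. JAK1 is a kinase that relays cytokine signals. The sources used here do not give the promoter that drives the human JAK1 or the cells that express it. In the second experiment WT mice were injected intrathecally with resiniferatoxin (RTX) at 25 ng per mouse on 2 days (n = 3) or with 10 µl saline vehicle (n = 2). In the third they were injected subcutaneously with 30, 70 and 100 µg/kg of RTX in the course of 3 days (n = 3) or with 100 µl saline vehicle (n = 2). RTX is a TRPV1 agonist that ablates sensory neurons bearing this channel. Per the labels the intrathecal route targeted spinal visceral afferents and the subcutaneous route vagal and spinal ones.

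Immediate early genes are transcribed within minutes of a growth factor, cytokine, calcium or stress signal, without new protein synthesis, because kinases such as ERK, p38 and RSK activate factors (SRF with its ternary complex partners, CREB, MEF2) that already sit on their promoters. Their mRNAs are short-lived, and several of their products, among them the phosphatase DUSP1, switch the signal off again. In tissue such as lung they are known to respond to inflammation and also to the handling and dissociation of the organ.

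The libraries held 18198872 to 24393000 counts, so that 3 counts, the upper limit that a count of 0 allows, corresponded to 0.123 to 0.165 CPM (counts per 1e+06 counts of the library). This covers counting error only. The lowest count of any of the 10 genes in any library was 72, for Fosb. Defining markers of lung were high in every library, with Sftpc, the alveolar type 2 surfactant protein, at 5453 to 10323 CPM. Sensory neuron markers were at or near 0, with Trpv1 at 0 to 0.317 CPM. A pair of trace transcripts, Rps3a2 and Hmga2, set libraries apart in a way the labels do not name. Over 2 CPM of Rps3a2 was found in WT recipient 1, both intrathecal vehicle libraries and subcutaneous RTX libraries 2 and 3, and in none of the other 9. Of those, 7 had over 2 CPM of Hmga2, and subcutaneous RTX 1 and subcutaneous vehicle 2 had neither. Intrathecal RTX and this split cannot be told apart. Whether the split reflects library preparation, sequencing or exchanged samples was not tested, so each group is given as labelled. Since separate mice are not named for the replicates, every p-value given here reflects the spread among these libraries alone, and that spread may be technical. In bulk RNA, fewer cells of a type and less RNA per cell cannot be told apart.

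On GRCm38 with GENCODE M21, Fos spans chr12:85473890-85477273 (plus strand), Fosb chr7:19302696-19310051 (minus), Jun chr4:95049034-95052222 (minus), Junb chr8:84974484-84978718 (minus), Atf3 chr1:191170296-191218039 (minus), Egr3 chr14:70077203-70082614 (plus), Nr4a1 chr15:101254269-101274795 (plus), Ier3 chr17:35821684-35822923 (plus) and Dusp1 chr17:26505590-26562128 (minus). Jun shares 232 exon bases with Junos, Junb 173 with Prdx2 and Dusp1 11 with Ergic1, each on the opposite strand. No strand setting of the counting is given in the sources used here, so reads from these stretches cannot be assigned to one strand. Junos was at a median of 2.92 CPM, Prdx2 at 126 CPM and Ergic1 at 84.2 CPM.

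RefSeq promoters of GRCm38.p6, from 250 bases before to 50 bases after the start, were matched for 8 of the 10 genes. The 4 shown belong to genes the results turn on: Ier3, Nr4a1 and Dusp1, which had the smallest p-values after subcutaneous RTX, and Fos, which gives AP-1 its inducible subunit. Capitals mark a TATA box (TATAAA) in Fos, the EGR motif (GCGGGGGCG, here on the reverse strand) in Nr4a1 and a full cyclic AMP response element (CRE, TGACGTCA) in Dusp1, and the Ier3 window held none of the motifs searched. The Nr4a1 and Dusp1 windows lie inside the gene spans given above, so the RefSeq start used there is not the outermost GENCODE start. The 4 windows lie at chr12:85473640-85473939 (plus), chr15:101266596-101266895 (plus), chr17:35821463-35821762 (plus) and chr17:26508423-26508722 (minus), in the order printed.
Fos: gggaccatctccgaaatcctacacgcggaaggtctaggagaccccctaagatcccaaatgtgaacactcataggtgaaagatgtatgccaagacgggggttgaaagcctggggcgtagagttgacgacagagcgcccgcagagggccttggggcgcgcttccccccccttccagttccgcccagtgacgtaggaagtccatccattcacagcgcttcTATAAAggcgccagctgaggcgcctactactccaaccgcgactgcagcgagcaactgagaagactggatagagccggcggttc
Nr4a1: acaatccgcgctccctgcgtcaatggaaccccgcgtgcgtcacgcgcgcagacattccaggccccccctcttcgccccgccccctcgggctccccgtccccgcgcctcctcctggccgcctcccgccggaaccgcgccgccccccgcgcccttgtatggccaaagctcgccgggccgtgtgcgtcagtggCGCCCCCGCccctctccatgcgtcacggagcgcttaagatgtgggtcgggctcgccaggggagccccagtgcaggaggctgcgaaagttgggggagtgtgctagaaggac
Ier3: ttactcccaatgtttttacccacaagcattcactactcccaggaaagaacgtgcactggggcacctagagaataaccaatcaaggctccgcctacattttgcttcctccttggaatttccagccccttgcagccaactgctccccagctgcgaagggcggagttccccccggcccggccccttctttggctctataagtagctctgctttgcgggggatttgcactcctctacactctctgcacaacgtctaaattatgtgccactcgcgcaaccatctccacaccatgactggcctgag
Dusp1: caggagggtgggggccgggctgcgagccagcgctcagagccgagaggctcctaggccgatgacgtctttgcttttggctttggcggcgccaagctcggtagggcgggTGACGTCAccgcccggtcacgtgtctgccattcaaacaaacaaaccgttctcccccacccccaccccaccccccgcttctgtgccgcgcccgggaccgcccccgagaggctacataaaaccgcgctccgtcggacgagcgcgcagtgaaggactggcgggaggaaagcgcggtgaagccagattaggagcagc

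Motifs were searched on both strands as exact letters. A TATAAA was found in 2 of the 8 promoters (Fos and Junb), against 13.6% of all 32544 promoters of the same length, and the EGR motif in 2 (Fosb and Nr4a1), against 2.93%. The full CRE was in 1 (Dusp1), against 1.8% of all promoters. The AP-1 site TGAGTCA was in 0 of 8, against 5.19%, and the serum response element, by its usual consensus, in 0 of 8, against 1.64%. In Fos the TATA box began at position −33 from the start, in Nr4a1 the EGR motif at −60 and in Dusp1 the CRE at −143. The Junb TATAAA began at position 0, at the start itself, and the Fosb EGR motif at −50. A match is a description of these letters and not a bound site. Sites outside this window, inexact sites and the promoters of Egr1 and Egr3 were not searched. A count of 0 therefore does not show that these genes lack the element.

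The 10 genes stood at very different levels in allergen-exposed lung when counted per length. On the scale of CPM per kb of merged exons, Ier3, a stress-induced regulator of survival and ERK signalling, was highest at a median of 90.8 over the 14 libraries (range 68.1 to 113). Jun and Junb, the dimer partners of the FOS proteins in AP-1, followed at 74.3 (57.7 to 95.4) and 71.5 (46.0 to 79.1). These 3 ranges overlap, and their order changed from library to library.

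Dusp1, the phosphatase that inactivates p38, JNK and ERK, was at 33.0 CPM per kb (21.3 to 78.1). Atf3, a stress-induced repressor of the ATF/CREB family, was at 15.0 (9.30 to 21.5), and Fos itself at 11.2 (8.16 to 16.8). Nr4a1, an orphan nuclear receptor induced by antigen receptor and growth signals, was at 8.99 (6.31 to 28.5), beside Egr1, the zinc finger factor of growth and injury signals, at 8.04 (4.60 to 13.2). Egr3, a relative of Egr1 prominent in activated lymphocytes, at 1.65 (0.986 to 2.38), and Fosb, a FOS paralog, at 0.764 (0.552 to 2.17), were lowest and overlapped each other. Among 23513 detected genes with a length, Ier3 stood at the 98th percentile, Fos at the 80th and Fosb at the 39.4th. Jun and Junb were above Fos and Fosb per length in every library.

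**Figure D1:**
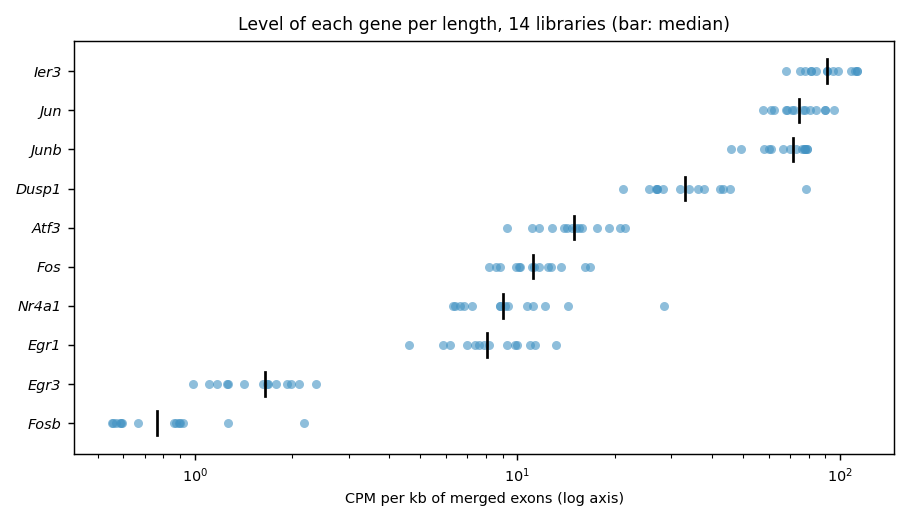
Level of each immediate early gene in CPM per kb of merged exons (log axis), with 1 point per library (14 libraries) and a bar at the median. Ier3, Jun and Junb overlap at the top, at medians of 90.8, 74.3 and 71.5, and Egr3 and Fosb lie lowest, at 1.65 and 0.764.

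The genes also differed in how much they varied. The highest library was 4.51 times the lowest for Nr4a1, 3.94 times for Fosb and 3.67 times for Dusp1. It was 1.65 times the lowest for Jun, 1.66 times for Ier3 and 1.72 times for Junb. In all 3 of the most variable genes the highest value came from the same library, WT recipient 1.

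**Figure D2:**
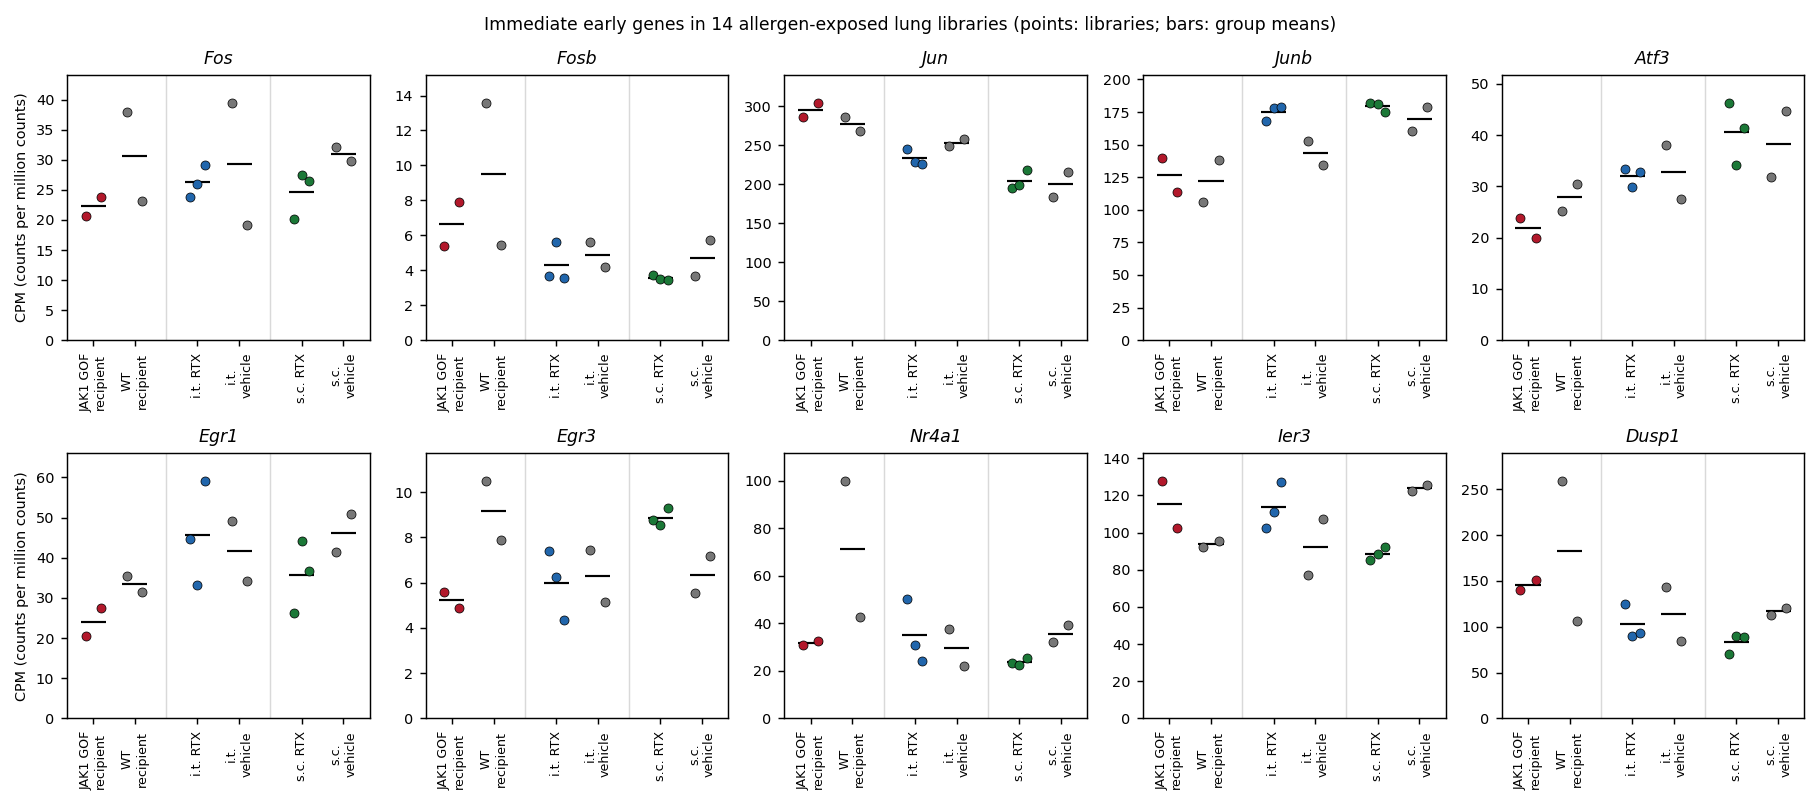
CPM of the 10 immediate early genes in each library (points) with group means (bars). In each panel the JAK1 GOF recipients stand left of the WT recipients and each RTX group left of its vehicle group, and WT recipient 1 stands apart at 99.9 CPM of Nr4a1 and 259 CPM of Dusp1.

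The chimera experiment asks what JAK1 GOF in host cells changed. In JAK1 GOF recipients the Egr genes, Nr4a1 and Atf3 were below both WT recipients, by 0.33 to 1.15 on the log2 scale, while Ier3 and Jun were above both, and none of the 10 passed the edgeR test. The comparison turned on the 2 WT recipients, which were far apart: WT recipient 1 had the highest Nr4a1, Fosb, Dusp1 and Egr3 of all 14 libraries. WT recipient 1 was also the only library of this experiment with over 2 CPM of Rps3a2. Its distance from WT recipient 2 and the split by Rps3a2 and Hmga2 cannot be told apart here. With that split as a term in a fit of all 14 libraries, the log2 fold changes of Dusp1, Fosb and Junb changed sign. The groups did not overlap in 6 of the 10 genes, 2 higher and 4 lower, and in 42.6% of all genes tested (19.6% higher and 23% lower).

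Nr4a1 had 31.0 and 32.7 CPM in JAK1 GOF recipients 1 and 2, against 99.9 and 42.8 CPM in WT recipients 1 and 2. Both GOF libraries were low and alike, and the spread lay within the WT group. The log2 fold change came to −1.15 ± 0.50 (SE; 95% interval −2.76 to 0.46; edgeR adjusted p = 0.548). Egr3 had 5.60 and 4.89 CPM in JAK1 GOF recipients, against 10.5 and 7.89 CPM in WT recipients. Its groups did not overlap, and at −0.79 ± 0.22 (SE; 95% interval −1.28 to −0.31; edgeR adjusted p = 0.149) it had the smallest p of the 10 genes in this comparison. Egr1 (GRCm38 chr18:34859823-34864984, plus strand) had 20.6 and 27.6 CPM in JAK1 GOF recipients, against 35.4 and 31.4 CPM in WT recipients, a log2 fold change of −0.46 ± 0.16 (SE; edgeR adjusted p = 0.253). The Egr1 groups did not overlap, but the GOF replicates lay farther apart than the gap between the groups.

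Fos had 20.7 and 23.8 CPM in JAK1 GOF recipients, against 38.1 and 23.2 CPM in WT recipients. WT recipient 2 lay between the GOF libraries, and the log2 difference was −0.45 ± 0.21 (SE; edgeR adjusted p = 0.459). Fosb had 5.37 and 7.91 CPM in JAK1 GOF recipients, against 13.6 and 5.45 CPM in WT recipients, and Dusp1 had 141 and 150 CPM, against 259 and 106 CPM. For both genes 1 WT recipient was above and the other near or below the GOF libraries, with log2 fold changes of −0.51 ± 0.45 and −0.31 ± 0.52 (SE; edgeR adjusted p = 0.738 and 0.882).

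The remaining genes were Atf3, Ier3, Jun and Junb. Atf3 had 23.9 and 20.0 CPM in JAK1 GOF recipients, against 25.2 and 30.6 CPM in WT recipients (log2 fold change −0.33 ± 0.16, SE; edgeR adjusted p = 0.443). Ier3 had 128 and 103 CPM in JAK1 GOF recipients, against 92.1 and 95.4 CPM in WT recipients (0.31 ± 0.13; edgeR adjusted p = 0.404). Jun, at 287 and 304 CPM against 286 and 268 CPM, and Junb, at 140 and 113 CPM against 106 and 138 CPM, had log2 fold changes of 0.10 ± 0.14 and 0.06 ± 0.16. The Jun groups were separated by less than 1 CPM, and the Junb groups overlapped.

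edgeR called 0 of the 10 genes, and 0.717% of all 17298 genes tested (124 genes). An unadjusted p under 0.05 was reached by 3 of the 10 (Egr3, Egr1 and Ier3), against 11.6% of all genes, and DESeq2 and limma voom also called 0, against 1.76% and 0.503% of all genes. The median log2 fold change of the 10 genes was −0.39, with 7 negative, and that of all genes 0.00. Without WT recipient 2, edgeR called 5 of the 10 lower, against 1.05% of all genes: Nr4a1 at −1.62 (adjusted p = 4.12e-10), Fosb at −1.01 (0.0118), Egr3 at −0.97 (0.0280), Dusp1 at −0.80 (0.00693) and Fos at −0.75 (0.0123). Without WT recipient 1 it called 0, against 5.16% of all genes, with Nr4a1 at −0.43, Fos at −0.07, Fosb at 0.27 and Dusp1 at 0.45, so that Fosb and Dusp1 changed sign. In each of these fits the lone WT library was assumed to vary like the GOF libraries. Without the low-count filter Egr1 and Egr3 passed as lower (adjusted p = 0.0482 and 0.0255), against 2.17% of all genes.

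Other lists differed between the same libraries, given here by edgeR calls unless another test is named. edgeR called 0.717% of all genes. Of 8 heart muscle markers 5 rose, with a summed level of 549 to 562 CPM in JAK1 GOF recipients and 249 to 357 CPM in WT recipients. Of 8 T and B cell markers 3 fell, with a summed level of 235 to 237 CPM in JAK1 GOF recipients and 379 to 448 CPM in WT recipients, and of 8 macrophage and monocyte markers 2 fell (532 to 595 CPM against 749 to 960 CPM). Of 8 neutrophil markers 1 fell (233 to 326 CPM against 367 to 429 CPM), and Ly6g, which defines these cells, was at 0 to 0.762 CPM over the 14 libraries. The 5 fat markers tested were all positive, with a median log2 fold change of 1.37. All 5 had an unadjusted p under 0.05, against 11.6% of all genes. DESeq2 called 3 of them, against 1.76% of all genes, and edgeR and limma voom 0. The fat list summed to 48.8 to 71.6 CPM in JAK1 GOF recipients and 23.5 to 28.4 CPM in WT recipients. Lung epithelium markers summed to 26831 to 28109 CPM in JAK1 GOF recipients and 21435 to 23601 CPM in WT recipients, and fibroblast and smooth muscle markers to 3440.5 to 4652 CPM and 5011 to 5844 CPM. The part of these differences in the values of the immediate early genes was not tested.

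The intrathecal experiment asks what loss of spinal afferents changed. After intrathecal RTX, Junb was above both vehicle libraries by 0.30 on the log2 scale and Jun below both by 0.10, and none of the 10 passed the edgeR test. Ier3, Nr4a1 and Egr1 had higher means and Fos, Fosb, Dusp1, Egr3 and Atf3 lower ones, with groups that overlapped. The groups did not overlap in 2 of the 10 genes, 1 higher and 1 lower, and in 30.3% of all genes (13.5% higher and 16.8% lower).

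Junb had 168, 178 and 179 CPM in intrathecal RTX libraries 1 to 3, against 153 and 134 CPM in vehicle libraries 1 and 2. All 3 RTX libraries were alike and above both vehicle libraries. Its log2 fold change was 0.30 ± 0.09 (SE; 95% interval 0.11 to 0.49; edgeR adjusted p = 0.218), the smallest p of the 10 genes. Jun had 245, 229 and 225 CPM in RTX libraries, against 249 and 258 CPM in vehicle libraries (−0.10 ± 0.08, SE; edgeR adjusted p = 0.662), a gap between the groups of a few CPM.

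Ier3 had 103, 111 and 127 CPM in intrathecal RTX libraries, against 77.1 and 107 CPM in vehicle libraries (0.32 ± 0.15, SE; edgeR adjusted p = 0.478). The second vehicle library lay within the RTX range. Fos had 23.9, 26.1 and 29.2 CPM in RTX libraries, against 39.5 and 19.2 CPM in vehicle libraries, so that the 2 vehicle libraries enclosed the RTX libraries. Nr4a1 had 50.4, 31.1 and 24.0 CPM in RTX libraries, against 37.5 and 22.2 CPM in vehicle libraries, and Dusp1 had 125, 89.9 and 93.3 CPM, against 143 and 84.5 CPM. For Fos, Nr4a1 and Dusp1 the log2 fold changes were −0.13 ± 0.31, 0.25 ± 0.43 and −0.13 ± 0.27, each smaller than its SE (edgeR adjusted p = 0.914, 0.873 and 0.898).

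Egr1 averaged 45.6 ± 13.0 CPM in intrathecal RTX libraries and 41.6 ± 10.6 CPM in vehicle libraries (SD, n = 3 and 2), and Egr3 6.00 ± 1.54 and 6.31 ± 1.62 CPM. Fosb averaged 4.29 ± 1.16 CPM in RTX libraries and 4.88 ± 1.01 CPM in vehicle libraries, and Atf3 32.0 ± 1.83 and 32.8 ± 7.43 CPM. These 4 differences were within the SD of at least 1 of the groups. edgeR called 0 of the 10 genes and 0.311% of all 17360 genes (54 genes). An unadjusted p under 0.05 was reached by 1 of the 10 (Junb), against 11.5% of all genes, and DESeq2 and limma voom called 0, against 1.62% and 0.334% of all genes. Without the low-count filter Ier3 and Junb passed as higher (adjusted p = 0.0282 and 0.0461), against 1.15% of all genes. The median log2 fold change of the 10 genes was −0.04, with 6 negative, and that of all genes 0.01. The same libraries split by Rps3a2 and Hmga2 as given above. With that split as a term in a fit of all 14 libraries the log2 fold changes of Fos, Fosb, Jun, Egr3 and Dusp1 changed sign. Neither intrathecal group was split within itself, so that term was set by the WT recipients and the subcutaneous libraries. The changed values are therefore not estimates of the RTX effect from the intrathecal libraries alone. The summed macrophage and monocyte markers were at 717 to 750 CPM in intrathecal RTX libraries and 780 to 784 CPM in vehicle libraries, with 4 of 8 positive. Neutrophil markers were at 107 to 138 CPM in RTX libraries and 96.3 to 102 CPM in vehicle libraries, with 6 of 7 positive and a median of 0.45, and fat markers at 15.0 to 22.5 CPM and 24.5 to 25.7 CPM. The T and B cell markers were at 254 to 384 CPM in RTX libraries and 284 to 286 CPM in vehicle libraries. The part of these differences in the values of the 10 genes was not tested.

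The subcutaneous experiment asks what loss of vagal and spinal afferents changed. After subcutaneous RTX, Ier3, Nr4a1 and Dusp1 were below both vehicle libraries by 0.50 to 0.61 on the log2 scale. Fos was below both as well, by 0.34, and Egr3 above both, by 0.47. None of them passed the test with edgeR, where no gene of the whole table did, and Ier3, Nr4a1 and Dusp1 passed it with DESeq2. The groups did not overlap in 5 of the 10 genes, 1 higher and 4 lower, and in 38.3% of all genes (20.5% higher and 17.8% lower).

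Ier3 had 85.0, 88.3 and 92.1 CPM in subcutaneous RTX libraries 1 to 3, against 123 and 126 CPM in vehicle libraries 1 and 2. The gap between the groups was several times the range within either. Its log2 fold change was −0.50 ± 0.07 (SE; 95% interval −0.66 to −0.35), the 12th smallest p of 17363 genes (edgeR adjusted p = 0.0947; DESeq2 adjusted p = 4.32e-06). Nr4a1 had 23.3, 22.5 and 25.3 CPM in RTX libraries, against 32.0 and 39.3 CPM in vehicle libraries, with the RTX libraries alike and the vehicle libraries apart from them and from each other. Its log2 fold change was −0.61 ± 0.11 (SE; 95% interval −0.87 to −0.34; edgeR adjusted p = 0.108; DESeq2 adjusted p = 0.00300). Dusp1 had 70.5, 89.7 and 89.2 CPM in RTX libraries, against 113 and 120 CPM in vehicle libraries (−0.50 ± 0.11, SE; edgeR adjusted p = 0.126; DESeq2 adjusted p = 0.00739). RTX library 1 was the lowest of the 14 libraries for Dusp1.

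Fos had 20.1, 27.5 and 26.4 CPM in subcutaneous RTX libraries, against 32.1 and 29.9 CPM in vehicle libraries (−0.34 ± 0.14, SE; edgeR adjusted p = 0.254). Egr3 had 8.77, 8.53 and 9.29 CPM in RTX libraries, against 5.55 and 7.16 CPM in vehicle libraries (0.47 ± 0.17, SE; edgeR adjusted p = 0.221). Egr3 thus stood opposite to Nr4a1 here, although both were low in JAK1 GOF recipients. Egr1 had 26.3, 44.1 and 36.7 CPM in RTX libraries, against 41.5 and 50.9 CPM in vehicle libraries (−0.39 ± 0.22, SE; edgeR adjusted p = 0.397), with 1 RTX library inside the vehicle range.

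Fosb averaged 3.55 ± 0.144 CPM in subcutaneous RTX libraries and 4.70 ± 1.48 CPM in vehicle libraries (SD, n = 3 and 2; log2 fold change −0.42 ± 0.25, SE). Jun averaged 204 ± 12.6 and 200 ± 22.7 CPM, Junb 180 ± 3.68 and 170 ± 12.6 CPM, and Atf3 40.6 ± 6.05 and 38.3 ± 9.13 CPM, in RTX and vehicle libraries in that order. The differences of the last 3 genes were within the SD of the vehicle libraries. edgeR called 0 of the 10 genes and 0% of all 17363 genes, while an unadjusted p under 0.05 was reached by 5 of the 10 (Ier3, Nr4a1, Dusp1, Egr3 and Fos), against 18.2% of all genes. DESeq2 called 3 of the 10, all lower, and 2.73% of all genes lower (5.57% in either direction), and limma voom called 0 of the 10 and 0% of all genes. The median log2 fold change of the 10 genes was −0.36, with 6 negative, and that of all genes −0.00. At a threshold of 0.1 edgeR called Ier3 lower, among 0.23% of all genes, and without vehicle library 2 it called Ier3 lower at the threshold of 0.05 (−0.48; adjusted p = 0.0296), among 2.48% of all genes. That fit assumes that the lone vehicle library varies like the RTX libraries. With the split by Rps3a2 and Hmga2 as a term in a fit of all 14 libraries, Nr4a1 was at −1.09 and Dusp1 at −1.08 (edgeR adjusted p = 0.249 and 0.108), against −0.50 for Ier3. That term drew in part on the WT recipients, which were far apart in Nr4a1 and Dusp1. Without the low-count filter Ier3, Nr4a1 and Dusp1 passed as lower (adjusted p = 0.000241, 0.000897 and 0.00318), against 1.54% of all genes.

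Markers of other cells differed between the same libraries. The summed level of 10 lung epithelium markers was 17372 to 20108 CPM in subcutaneous RTX libraries and 23986 to 32462 CPM in vehicle libraries, with all 10 negative. That of 8 macrophage and monocyte markers was 1049 to 1113 CPM in RTX libraries and 751 to 957 CPM in vehicle libraries, with 6 positive, and that of 8 neutrophil markers 198 to 258 CPM and 101 to 164 CPM, with all 7 tested positive. The 8 heart muscle markers summed to 140 to 179 CPM in RTX libraries and 119 to 434 CPM in vehicle libraries, with all 8 negative. The 8 T and B cell markers summed to 460 to 615 CPM in RTX libraries and 292 to 393 CPM in vehicle libraries, with 7 positive. Mast cell and basophil markers summed to 228 to 236 CPM in RTX libraries and 198 to 199 CPM in vehicle libraries. Hdc and Gata2 made up most of that sum, at medians of 130 and 80.7 CPM over the 14 libraries. Mcpt8, Cpa3, Mcpt4, Fcer1a, Ms4a2 and Cma1 had medians of 0.256 to 1.23 CPM, so the sum says little about mast cells. Sensory neuron and glia markers summed to 8.03 to 10.3 CPM in RTX libraries and 12.4 to 13.5 CPM in vehicle libraries. edgeR and limma voom called 0 markers of these lists. DESeq2, which called 5.57% of all genes, called 5 epithelium markers and 1 heart muscle marker lower. It called 2 macrophage, 3 neutrophil, 1 mast cell and 3 T and B cell markers higher. An unadjusted p under 0.05 was reached by 18.2% of all genes. Among the markers it was reached by 6 epithelium, 4 macrophage, 4 neutrophil, 4 T and B cell, 2 mast cell, 1 sensory neuron and 1 heart muscle markers. The mast cell list member that DESeq2 called was Hdc. Endothelium markers summed to 2184 to 2579 CPM in RTX libraries and 2506 to 2653 CPM in vehicle libraries, with 6 of 8 negative. Of these DESeq2 called Car4 and Cldn5 lower, and 3 had an unadjusted p under 0.05. Fibroblast and smooth muscle markers summed to 4891 to 7148 CPM and 3698 to 5062 CPM, with 5 of 8 positive. Of these DESeq2 called Col3a1 higher, and 2 had an unadjusted p under 0.05. edgeR called 0 in both lists. The part of all these markers in the values of the immediate early genes was not tested.

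**Figure D3:**
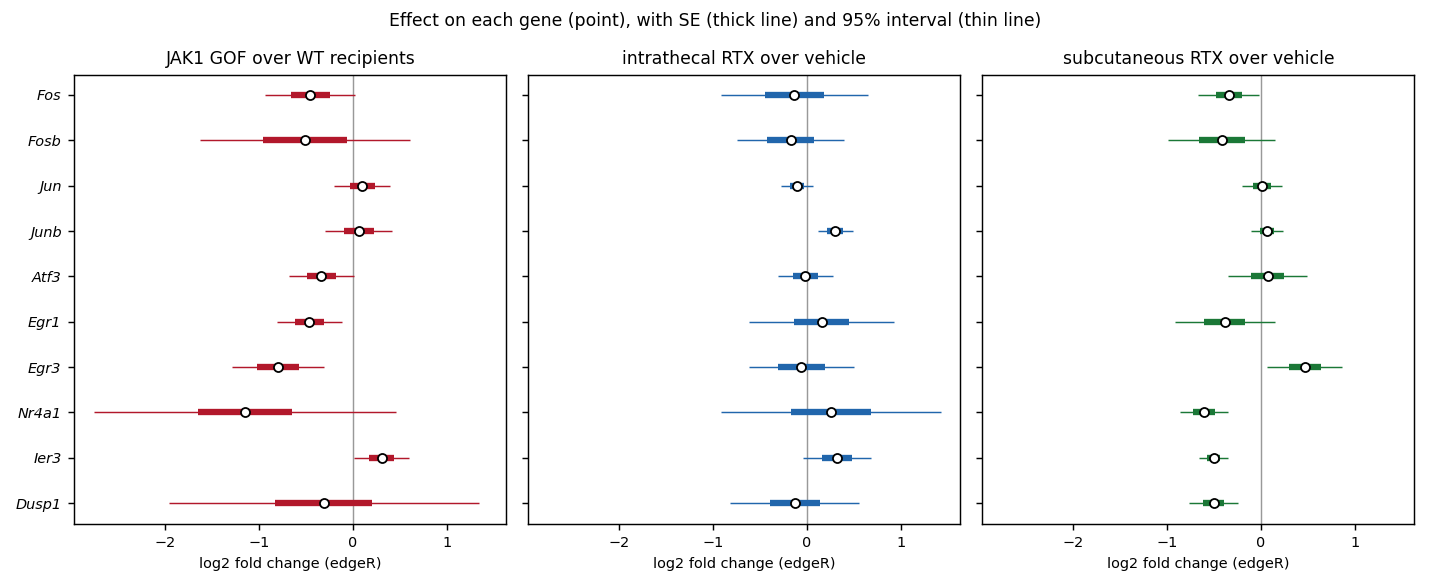
Log2 fold change from edgeR of each immediate early gene in the 3 experiments (points), with SE (thick lines) and 95% interval (thin lines). The subcutaneous RTX panel shows Ier3, Nr4a1 and Dusp1 at −0.50, −0.61 and −0.50 with narrow intervals, and the chimera panel shows Nr4a1 at −1.15 with an interval from −2.76 to 0.46.

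Whether the RTX effect differed between the routes was tested in 1 fit of the 10 RTX and vehicle libraries. Doses and schedules differed between the routes as well, so route and dose cannot be told apart. Ier3 had the smallest p of the 10 genes, with an effect of −0.50 after subcutaneous and 0.32 after intrathecal RTX. The difference for Ier3 of −0.81 ± 0.18 (SE; 95% interval −1.22 to −0.41) did not pass with edgeR (adjusted p = 0.128) and passed with DESeq2 (adjusted p = 0.00605), which called 2.01% of all genes, and 0.896% as lower. Nr4a1 had the largest difference but a wider error, at −0.61 after subcutaneous and 0.25 after intrathecal RTX, a difference of −0.85 ± 0.45 (SE; edgeR adjusted p = 0.413). With the split by Rps3a2 and Hmga2 as a term in a fit of all 14 libraries this difference came to −2.24 for Nr4a1 and −1.91 for Dusp1, against −0.81 for Ier3. That term was set outside the intrathecal libraries and in part by the WT recipients. These values are therefore not a route difference from the RTX and vehicle libraries alone. Egr1 differed by −0.53 ± 0.41, Egr3 by 0.53 ± 0.32 and Junb by −0.23 ± 0.11 (SE; edgeR adjusted p = 0.583, 0.463 and 0.346).

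edgeR called 0 of the 10 genes for the difference between routes, and 0.0556% of all 17972 genes (10 genes). An unadjusted p under 0.05 was reached by Ier3 alone among the 10, against 15.2% of all genes, and limma voom called 0 of the 10, against 0.0556% of all genes. The mean RTX effect over both routes uses the same libraries as the effects above. It was 0.18 ± 0.05 for Junb (SE; edgeR adjusted p = 0.153; DESeq2 adjusted p = 0.0408), with Junb at 0.30 after intrathecal and 0.07 after subcutaneous RTX. For Dusp1 it was −0.32 ± 0.16 (edgeR adjusted p = 0.368). edgeR called 0 of the 10 for the mean effect and 0.089% of all genes, an unadjusted p under 0.05 was reached by Junb alone, against 15.7% of all genes, DESeq2 called 1 of the 10 higher, against 1.57% of all genes higher and 4.12% in either direction, and limma voom called 0, against 0.0779%.

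Apart from the groups, some of the genes varied together from library to library. Each library's log2 CPM was set against the mean of its own group, and Pearson's r between genes was taken over the 14 libraries, as a description without a p. In groups of 2 the libraries mirror each other, so the 14 deviations are not independent, and all genes of a library share its depth and scaling. Of 45 gene pairs 25 had r above 0 and 20 below, with a median of 0.111. Nr4a1 went with Dusp1 (r = 0.897) and with Egr3 (r = 0.872), and Fos with Dusp1 (r = 0.773). Without the WT recipients, over 12 libraries, these were 0.815, 0.914 and 0.715. Fosb went with Dusp1 at 0.631 and with Nr4a1 at 0.619, but only 0.144 and 0.269 without the WT recipients. Junb and Atf3 formed another pair (r = 0.681, and 0.664 without the WT recipients). Ier3 ran against Nr4a1 (r = −0.644) and Egr3 (r = −0.604).

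The mean deviation of the 10 genes was 0.208 on the log2 scale in WT recipient 1 and −0.208 in WT recipient 2, 0.203 in intrathecal vehicle 1 and −0.203 in intrathecal vehicle 2, and −0.132 in subcutaneous vehicle 1 and 0.132 in subcutaneous vehicle 2. In the 8 JAK1 GOF and RTX libraries it lay between −0.0787 and 0.0814. Among 12160 other genes with a mean of at least 5 CPM, those whose deviations were most like this mean were Eda2r, Ppp1r10, Nfrkb, Plekhf1, Sumf1 and Ptrhd1, with r of 0.883, 0.863, 0.858, 0.841, 0.839 and 0.830 over 14 libraries. Over the 12 libraries without the WT recipients the same 6 were at 0.830, 0.816, 0.772, 0.802, 0.845 and 0.752. Those 12 are part of the 14, so they are no separate check. The 6 were picked as the highest of 12160 correlations over deviations that are not independent. High values can arise from such a choice alone, and no link of these genes to the 10 was tested.

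**Figure D4:**
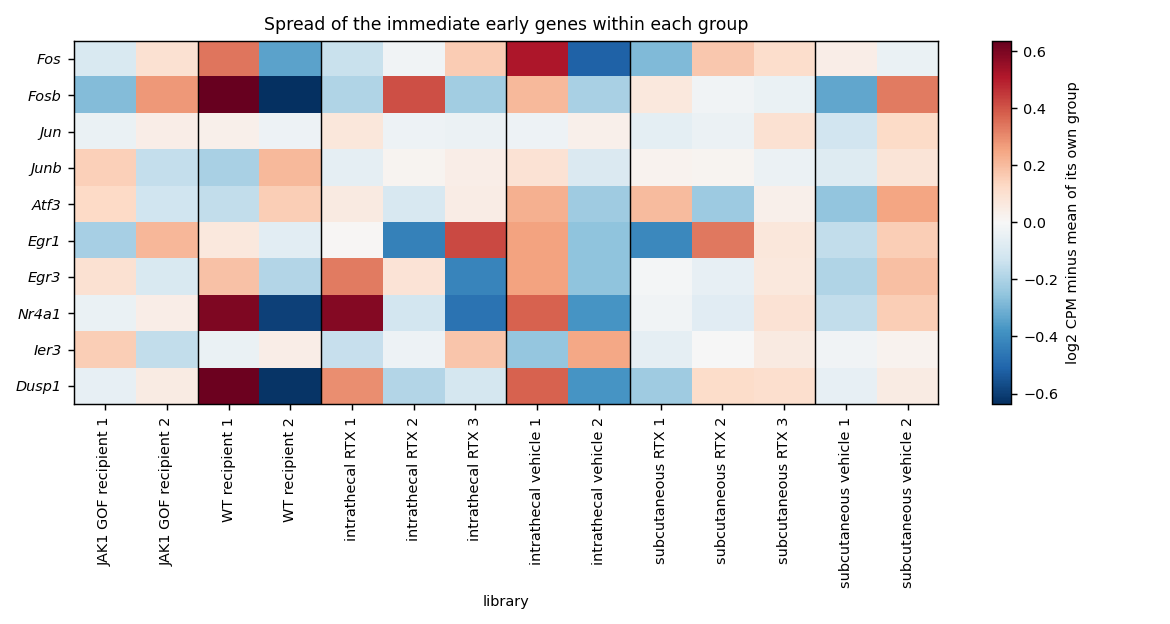
Deviation of each immediate early gene in each library from the mean of its own group, on the log2 CPM scale, with red above and blue below the mean and lines between groups. WT recipient 1 and WT recipient 2 mirror each other in Fos, Fosb, Nr4a1 and Dusp1, and the mean deviation of the 10 genes is 0.208 and −0.208 in them.

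In the wider pathway no gene passed the edgeR test. Among 30 other primary response genes, 14 other AP-1 and MAF family genes, 23 upstream kinases and factors and 20 feedback inhibitors, all tested, edgeR called 0 in each of the 5 comparisons, and limma voom also 0. In JAK1 GOF recipients the median log2 fold change of the 30 primary response genes was −0.21, with 24 negative and 8 at an unadjusted p under 0.05, against 49.9% negative and 11.6% at that p among all genes. Nr4a3, a relative of Nr4a1, had 9.99 and 12.0 CPM in JAK1 GOF recipients, against 19.0 and 16.3 CPM in WT recipients (−0.68 ± 0.17, SE; edgeR adjusted p = 0.114). Batf3, an AP-1 factor needed for cross-presenting dendritic cells, had 2.87 and 1.87 CPM in JAK1 GOF recipients, against 5.38 and 7.75 CPM in WT recipients (−1.45 ± 0.31, SE; edgeR adjusted p = 0.0587), and was the only gene of the 4 lists that DESeq2 called there. Tnfaip3, an inhibitor of NF-kappaB signalling, was at −0.45 ± 0.12 (SE; edgeR adjusted p = 0.137).

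After intrathecal RTX the 30 primary response genes had a median of 0.15 with 22 positive and 6 at an unadjusted p under 0.05, against 51.5% positive and 11.5% at that p among all genes. Plk3, a stress kinase, had 26.0, 26.7 and 25.3 CPM in RTX libraries, against 19.9 and 17.9 CPM in vehicle libraries (0.48 ± 0.10, SE; edgeR adjusted p = 0.104), and was the only one of the 30 that DESeq2 called. After subcutaneous RTX the median was −0.11 with 21 negative and 8 at an unadjusted p under 0.05, against 50.8% negative and 18.2% at that p among all genes. Spry1, a feedback inhibitor of receptor tyrosine kinase signalling, had 28.3, 32.5 and 35.8 CPM in RTX libraries, against 48.8 and 47.9 CPM in vehicle libraries (−0.60 ± 0.11, SE; edgeR adjusted p = 0.101). Rps6ka1, the ERK-activated kinase RSK1, was at 0.40 ± 0.09 and Ier5, known to activate heat shock factor 1, at 0.29 ± 0.07 (SE; edgeR adjusted p = 0.121 and 0.130). DESeq2 called 8 genes of the 4 lists after subcutaneous RTX, against 5.57% of all genes. Of these Ier5, Egr2, Rps6ka1 and Zfp36l2 were higher and Spry1, Dusp8, Cebpd and Klf4 lower.

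Genes known to move with handling and time of day were set beside these values. Of 10 heat shock genes, all were positive in JAK1 GOF recipients with a median of 0.41, and edgeR called 0. Of the 10, 3 had an unadjusted p under 0.05, against 11.6% of all genes, and DESeq2 called 1, against 1.76%. After intrathecal RTX 2 of the 10 rose and 3 fell by edgeR, which called 0.311% of all genes. There 9 had an unadjusted p under 0.05, against 11.5% of all genes. DESeq2 called 4 higher and 5 lower, against 1.62% of all genes. Hspb1, a small heat shock protein, rose to 598, 536 and 471 CPM in RTX libraries, against 132 and 153 CPM in vehicle libraries (1.92 ± 0.12, SE; edgeR adjusted p = 0.000227). Hspe1, the other gene that rose, was at 0.90 ± 0.08 (SE; edgeR adjusted p = 0.00184). Its call was lost with all 14 libraries in 1 fit (adjusted p = 0.0572). Hspa1b, an inducible HSP70, fell to 86.7, 66.8 and 50.5 CPM in RTX libraries, against 480 and 342 CPM in vehicle libraries (−2.58 ± 0.26, SE; edgeR adjusted p = 0.0449). The term for the split by Rps3a2 and Hmga2 was set outside the intrathecal libraries, as given above. With it in a fit of all 14 libraries the call of Hspb1 was lost (1.70; adjusted p = 0.130). The same fit without the term kept that call (1.92; adjusted p = 0.00243). That of Hspa1b was lost without RTX library 2 or without either vehicle library (adjusted p = 0.0843 to 0.180). The other genes that fell were Dnajb1 and Bag3, whose calls were lost without any 1 of the RTX libraries, and for Bag3 also without either vehicle library. After subcutaneous RTX 9 of the 10 heat shock genes were positive, with a median of 0.22 and 0 called by edgeR. Of these 10, 3 had an unadjusted p under 0.05, against 18.2% of all genes, and DESeq2 called 2, against 5.57%. For the difference between routes edgeR called Hspb1 (−1.66; adjusted p = 0.0422) and Hspe1 (−0.76; adjusted p = 0.0390), among 0.0556% of all genes. For the mean effect it called both as higher (1.09 and 0.51; adjusted p = 0.0236 and 0.00768), among 0.089%. Both calls for the difference were lost with all 14 libraries in 1 fit, with the replicate number as a block and without any 1 intrathecal library. They were also lost without subcutaneous RTX library 2 or subcutaneous vehicle library 1. For the mean effect the call of Hspe1 was lost with all 14 libraries in 1 fit and without intrathecal vehicle library 2. That of Hspb1 was lost with the block, without either intrathecal vehicle library, without subcutaneous RTX library 1 and without subcutaneous vehicle library 1.

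In the circadian clock list 2 of 13 genes rose in JAK1 GOF recipients, Dbp and Nr1d1, an output factor and a repressor of the clock. Of the 13, 6 had an unadjusted p under 0.05, against 11.6% of all genes. Nr1d1 had 251 and 201 CPM in JAK1 GOF recipients, against 138 and 101 CPM in WT recipients (0.93 ± 0.17, SE; edgeR adjusted p = 0.0404), and Dbp was at 0.88 ± 0.15 (SE; edgeR adjusted p = 0.0351). Both calls ended without JAK1 GOF recipient 1 (adjusted p = 0.170 and 0.190), and that of Dbp also without JAK1 GOF recipient 2 (0.0597). After subcutaneous RTX edgeR called 0 of the 13, while 7 had an unadjusted p under 0.05, against 18.2% of all genes. DESeq2 called Cry2, Nr1d2 and Tef lower, against 5.57% of all genes. Tef was at −0.50 ± 0.11 (SE; edgeR adjusted p = 0.121). The list summed to 547 to 621 CPM in RTX libraries and 665 to 756 CPM in vehicle libraries. After intrathecal RTX edgeR and DESeq2 called 0, and 3 had an unadjusted p under 0.05, against 11.5%. The part of handling or time of day in the values of the immediate early genes was not tested.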

How the data were processed

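Lung RNA was extracted with RNeasy, selected with oligo-dT beads and prepared with NEBNext Ultra II, per the labels' protocols. Trim Galore 0.6.6, FastQC 0.11.8, STAR 2.7.5b, Salmon 1.2.1 and GRCm38 are named in the submitters' processing notes. The authors deposited 1 table of estimated counts per experiment (not normalized; 55.1% of values above 0 not whole). The sources used here do not give the annotation release or the strand setting.

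CPM used each library's total. Estimated counts were rounded and tested with edgeR 4.0.16 (TMM, filterByExpr with min.count 10 and min.total.count 15, robust quasi-likelihood F test, R 4.3.3) within each experiment, and in 1 fit of both RTX experiments for the difference and the mean of their effects. P-values were adjusted by Benjamini-Hochberg over every gene tested (threshold 0.05). SE was |log2 fold change| / √F. All 10 genes passed the filter in each comparison. DESeq2 1.42.0, limma voom 3.58.1, other scalings and filters, omission of each library and a replicate block were alternatives. The fit was also run on simulated counts with the same dispersion for every gene and no library set apart. That run does not check it on the spread of these libraries.

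The 10 genes and the lists were chosen with earlier results of these data known. All 10 were described. In other lists, the genes named by value were those with the smallest p in each list and comparison and those that passed; genes named only from DESeq2 calls were chosen after their values were seen. Replicates differed by more than counting noise (chi-square per degree of freedom 8.92 to 21.3), so none were merged. Promoters came from RefSeq tables of GRCm38.p6, and lengths and positions from GENCODE M21.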

Additional observations from a re-analysis of the deposited data

How the results depend on the processing

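Of the 10 immediate early genes, edgeR called 0 in each comparison as reported. Without the low-count filter it called 2 lower in JAK1 GOF recipients (Egr1 and Egr3), against 2.17% of all genes lower. In that setting it called 2 higher after intrathecal RTX (Ier3 and Junb), against 1.15% of all genes higher. After subcutaneous RTX it called 3 lower (Ier3, Nr4a1 and Dusp1), against 1.54% of all genes lower. DESeq2 called 3 lower after subcutaneous RTX, against 2.73% of all genes lower. It called 1 lower for the difference between routes, against 0.896%, and 1 higher for the mean effect, against 1.57%. At a threshold of 0.1 edgeR called 1 lower after subcutaneous RTX, against 0.23% of all genes. With 1 library left out, any of the 10 genes passed only in fits that kept 1 control library. Those are given above beside their shares of all genes.

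All genes called in JAK1 GOF recipients numbered 124 as reported, 286 at a threshold of 0.1, 50 with all 14 libraries in 1 fit, 305 with DESeq2, 807 without the filter, 79 without the robust prior and 83 to 919 with 1 library left out. After intrathecal RTX they numbered 54, against 123, 7, 254, 655, 34 and 19 to 40 in the same order, and 5 with library state as a term. That term, which splits libraries by Rps3a2 and Hmga2, was chosen after seeing the data. Only the WT recipient and subcutaneous groups held libraries of differing states, so they alone set it. After subcutaneous RTX 0 genes were called, against 62 at 0.1, 71 with all 14 libraries, 761 with DESeq2, 807 without the filter, 184 with library state and 0 to 871 with 1 library left out. For the difference between routes 10 were called, against 47, 0, 312, 147, 6 and 0 to 90 in that order. For the mean effect 16 were called, against 230, 2, 582, 289, 9 and 0 to 406 in that order, 7 without the robust prior and 6 with scaling by total counts.

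Replicate numbers did not pair the libraries (correlation of deviations 0.0431, −0.122 and −0.0579 in the 3 experiments). With the number as a block, 0 of the 10 genes were called in any comparison. All genes called were then 123 in JAK1 GOF recipients, 50 after intrathecal RTX, 0 after subcutaneous RTX, 2 for the difference and 1 for the mean effect. With the block the effect changed sign for Egr1 (−0.080) and Egr3 (0.14) after intrathecal RTX and for Jun (−0.034) after subcutaneous RTX.

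With library state as a term, signs changed after intrathecal RTX for Dusp1 (0.83), Fosb (0.86), Fos (0.42), Egr3 (0.32) and Jun (0.055). They also changed in JAK1 GOF recipients for Dusp1 (0.30), Fosb (0.14) and Junb (−0.029), after subcutaneous RTX for Jun (−0.062), for the difference for Egr3 (−0.034), Jun (−0.12) and Junb (0.13), and for the mean effect for Nr4a1 (0.029). Without a change of sign, Nr4a1 and Dusp1 came to −1.09 and −1.08 after subcutaneous RTX and to −2.24 and −1.91 for the difference. limma voom gave 0.0031 for Atf3 after intrathecal RTX. With 1 library left out, effects crossed 0 after intrathecal RTX for Atf3 (−0.23 to 0.23), Dusp1 (−0.46 to 0.29), Egr1 (−0.084 to 0.43), Egr3 (−0.30 to 0.22), Fos (−0.56 to 0.47), Fosb (−0.41 to 0.044) and Nr4a1 (−0.10 to 0.67). In JAK1 GOF recipients they did so for Dusp1 (−0.80 to 0.45), Fosb (−1.01 to 0.27) and Junb (−0.13 to 0.28). After subcutaneous RTX they did so for Atf3 (−0.16 to 0.34), Jun (−0.10 to 0.14) and Junb (−0.0099 to 0.15). For the difference they did so for Atf3 (−0.15 to 0.37), Fos (−0.81 to 0.22) and Fosb (−0.53 to 0.13), and for the mean effect for Atf3 (−0.091 to 0.16), Egr1 (−0.24 to 0.020), Fos (−0.45 to 0.062), Ier3 (−0.21 to 0.037), Jun (−0.11 to 0.014) and Nr4a1 (−0.36 to 0.031). After subcutaneous RTX and with 1 library left out, Ier3 stayed between −0.53 and −0.48 (adjusted p 0.0296 to 0.341), Nr4a1 between −0.75 and −0.45 (0.0772 to 0.282) and Dusp1 between −0.56 and −0.40 (0.132 to 0.466). The cause of these shifts was not tested. Some settings entail fewer libraries or a larger number of genes, and their part was not tested either. Depth did not bring any of the 10 genes near 0, since the lowest count was 72, and the small number of libraries limits the precision.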

Other observations

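Relatives of the immediate early genes stood on both sides of them in CPM per kb of merged exons, a scale on which they are not given above, as medians over the 14 libraries. Among AP-1 genes Jund, the constitutive JUN paralog, was at 171 (range 144 to 218), above Jun and Junb in every library range, and Atf4, the factor of the integrated stress response, at 81.1 (66.2 to 93.2). Fosl2, a FOS relative, was at 14.5 (9.76 to 18.6), near Fos, while Fosl1 was at 0.568. Among primary response genes Rhob, a small GTPase, was at 94.3 (71.7 to 148) and Ccn1, a matricellular protein, at 89.1 (54.0 to 136). Ier2 was steady, at 29.4 (25.5 to 34.5), and Egr2 variable, at 7.14 (reaching 14.9). Nr4a3 was at 3.69 (1.67 to 5.52) and Nr4a2 at 1.65 (1.19 to 3.60), both below Nr4a1. Arc and Npas4, known best from activated neurons, were at 0.902 and 0.167. Among feedback genes Zfp36l1, which destabilises AU-rich mRNAs, was at 85.9 (78.5 to 98.6) and Nfkbia, the inhibitor of NF-kappaB, at 82.2 (68.6 to 99.9), while the phosphatase Dusp2 was at 2.90.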
